A study of Mus musculus with 15 samples.

Results

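The complement and coagulation genes of the liver were followed in an experiment on liver cancer and maternal diet. They were 34 genes picked by symbol from a table of 21949 genes: 10 genes of complement activation, 6 of terminal complement, 2 complement inhibitors, 4 genes of the contact system, 6 clotting factors, 4 anticoagulants and 2 genes of fibrinolysis. All livers came from male wild-type C57BL/6 mice killed at 40 weeks of age. In the 3 high-fat groups the animals received DEN (diethylnitrosamine, a liver carcinogen) at 2 weeks and lived on a diet with 60% of its energy as fat. Their mothers had also eaten this diet between 1 and 3 months of age, and the groups differ in how long the maternal line had done so: H1D are offspring of F0 females, H2D of F1 females and H3D of F2 females. NCD mice received DEN at 2 weeks and ate chow, and Nor mice received PBS at 2 weeks and ate chow. Both were male offspring of F0 mice kept on chow. A high-fat group thus differs from NCD in its own diet and in its ancestry at once, and each generation is 1 cohort, so neither pair can be told apart. Each group gave 2 libraries, each from a pool of RNA, and 4 to 8 animals of a group went into its pools. The p-values therefore measure the spread between pools, which is not the spread between animals.

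Complement and coagulation are cascades of plasma proteins, made mainly by hepatocytes, in which one protease cuts and activates the next. Complement is started by C1 on antibodies, by mannose-binding lectins on sugars or by spontaneous turnover of C3, and all routes end in cleavage of C3 and of Hc, after which C6, C8 and C9 join into a membrane pore. Coagulation is started by tissue factor or by the contact system, ends in thrombin and fibrin, and is held back by antithrombin and the protein C pathway, while plasmin dissolves the clot. Several of the genes belong to the acute phase response, the shift in liver secretion driven by inflammatory cytokines.

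The values were FPKM (fragments per kilobase, corrected for transcript length and for how many fragments the library mapped), summed over the transcripts of a gene. The number of reads per library is unknown, so no counting interval could be given. All 34 genes reached 1 FPKM in every library and passed the filter on low values. Together they made up 2.18 to 2.19% of the summed FPKM in the H1D pools, 2.30 to 2.34% in H2D, 2.29 to 2.47% in H3D, 1.72 to 1.74% in NCD and 1.49% in both Nor pools. These shares depend on the summed FPKM of all genes, 784456 and 772100 in the Nor pools against 676268 and 660821 in NCD. The 34 genes themselves summed to 11706.1 and 11541.3 FPKM in Nor against 11617.5 and 11510.8 FPKM in NCD. The higher share in NCD than in Nor thus came from the lower total. Over the high-fat pools the total ran from 568823 to 628484 FPKM, and the sum of the 34 genes from 13306.7 to 14687.2 FPKM. The tissue label held against its markers: 7 hepatocyte markers, albumin among them, summed to between 48331 and 88394 FPKM in every library. In pooled tissue, fewer cells of a type and less RNA per cell cannot be told apart. Some genes have close copies between which reads could be divided (C4b and C4a, C1ra and C1rb, C1s1 and C1s2, Kng1 and Kng2), and their values are uncertain for that reason. In the deposited values, C1rb reached at most 0.078 FPKM and C1s2 at most 1.9e-06 FPKM in any library, so little was assigned to these copies. The gene identifier that the deposited table calls Klkb1 is named Gm45753 in the gene name table used here, and the deposited symbol was kept.

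The genes spanned levels from 31.8 FPKM for Pros1 to 2416 FPKM for C3, as means over the 10 libraries. Complement C3 and Kng1, the precursor of bradykinin, led, ahead of Serpinc1 (antithrombin) with 1116 FPKM, Plg (plasminogen) with 887 FPKM and F2 (prothrombin) with 773 FPKM. The ratio of the highest to the lowest library was widest for 2 genes of the membrane pore, 5.87 for C6 and 4.63 for C8b, followed by Klkb1 (plasma prekallikrein) with 3.50 and Kng1 with 3.02. It was narrowest for prothrombin, with 1.18. By group mean, 16 of the 34 genes were highest in Nor, 11 in H2D, 6 in H1D, 1 in H3D and 0 in NCD. Conversely, 14 were lowest in H3D, 8 in Nor, 6 in H1D, 6 in NCD and 0 in H2D. These orders are on the deposited scale, and the same shares over all genes were not computed. The counts can thus not be read as particular to the 34 genes.

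**Figure D1:**
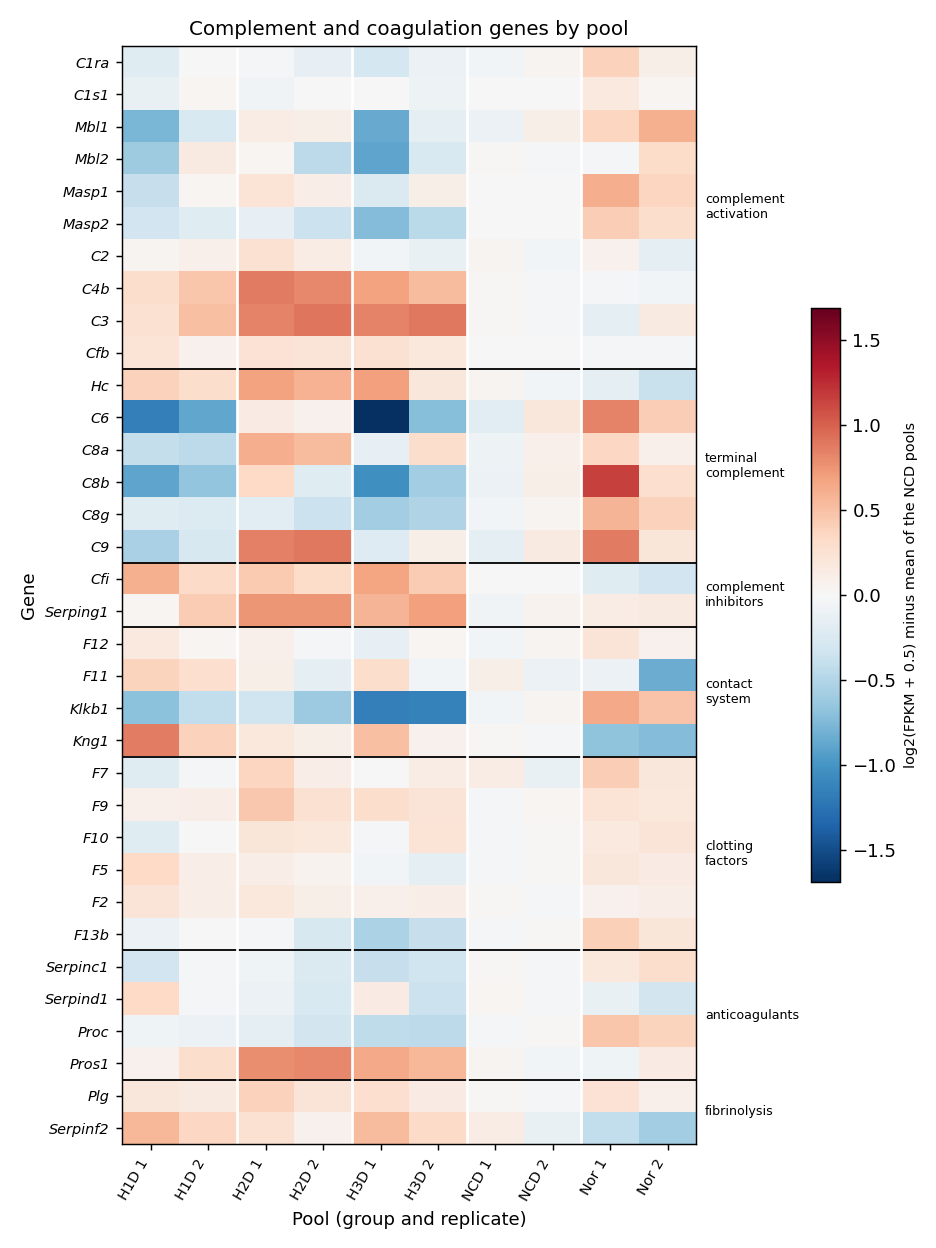
Level of each of the 34 genes in each of the 10 pools, as log2(FPKM + 0.5) minus the mean of that gene in the 2 NCD pools. Rows are genes ordered by role, columns are pools ordered H1D, H2D, H3D, NCD and Nor, and red marks higher and blue lower values than NCD. C3, C4b, Serping1 and Pros1 are red in all H2D and H3D pools, and Klkb1 is blue in all high-fat pools and red in Nor.

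Each gene was tested with limma across all 11557 genes that passed the filter, and a call is a Benjamini-Hochberg adjusted p below 0.05 over all of them. "Rose" and "fell" are used for calls. In H3D against NCD, 5 of the 34 genes rose (C3, C4b, Cfi, Serping1 and Pros1) and 6 fell (Klkb1, C6, Masp2, C8g, F13b and Proc), where 14.9% of all genes were called, 5.04% higher and 9.87% lower. In H2D against NCD 4 rose (C3, C4b, Serping1 and Pros1) and 0 fell, where 4.08% of all genes were called, and 2.15% rose. In H1D against NCD 0 of the 34 were called by limma, where 0.701% of all genes were called. An unadjusted p of limma below 0.05 was held there by 9 of the 34 and by 1986 of the 11557 genes tested. The mean of the 3 high-fat groups against NCD gave 5 rises (C3, C4b, Cfi, Serping1 and Pros1) and 2 falls (Klkb1 and C8g), where 11.8% of all genes were called, 4.23% higher and 7.53% lower. NCD against Nor gave 1 rise (Kng1) and 3 falls (Klkb1, C8g and Proc), where 13.9% of all genes were called, 7.93% higher and 6% lower. Called at least once were 12 genes, and 22 were never called. The comparisons share pools, and the share of all genes called at least once was not computed. The 12 can thus not be set against all genes. The share of the 34 in NCD against Nor, 11.8%, was thus close to that of all genes. The split into rises and falls depends on how the libraries are scaled to each other, and 3 other scalings were run: equal FPKM sums, equal sums without mitochondrial genes, and quantiles. In H3D against NCD they gave 11 rises and 4 falls, 10 and 4, and 10 and 1. In the mean of the high-fat groups they gave 11 and 1, 10 and 1, and 9 and 1, and in NCD against Nor 3, 2 and 1 rises with 0 falls. All 3 added Cfb, Hc, F9 and Serpinf2 to the rises in H3D, C8a and F9 to those in H2D and Serpinf2 to those in NCD against Nor; the accounts that follow are on the deposited scale. Equal FPKM sums move the median log2 change of all genes by 0.20 in NCD against Nor, 0.10 in H1D and H2D, 0.20 in H3D and 0.14 in the mean of the high-fat groups.

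The median log2 change of the 34 genes was 0.01 in H1D, 0.14 in H2D and -0.05 in H3D against NCD, where the medians of all genes tested were 0.008, -0.003 and 0.003. The median size of the change, without its sign, was 0.22 in H1D, 0.20 in H2D and 0.33 in H3D, where over all genes it was 0.16, 0.16 and 0.21. These comparisons share the 2 NCD pools. Leaving out NCD replicate 1 left 0 calls among the 34 genes in H2D, 4 in H3D and 0 in the mean of the high-fat groups, and leaving out NCD replicate 2 left 0, 1 and 0 calls. Without H2D replicate 1 the H2D comparison kept 1 call and without H2D replicate 2 it kept 0, without H3D replicate 1 the H3D comparison kept 4, and without H2D replicate 2 the mean of the high-fat groups kept 4. In NCD against Nor 0 calls were left without either NCD pool and 1 without Nor replicate 1.

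**Figure D2:**
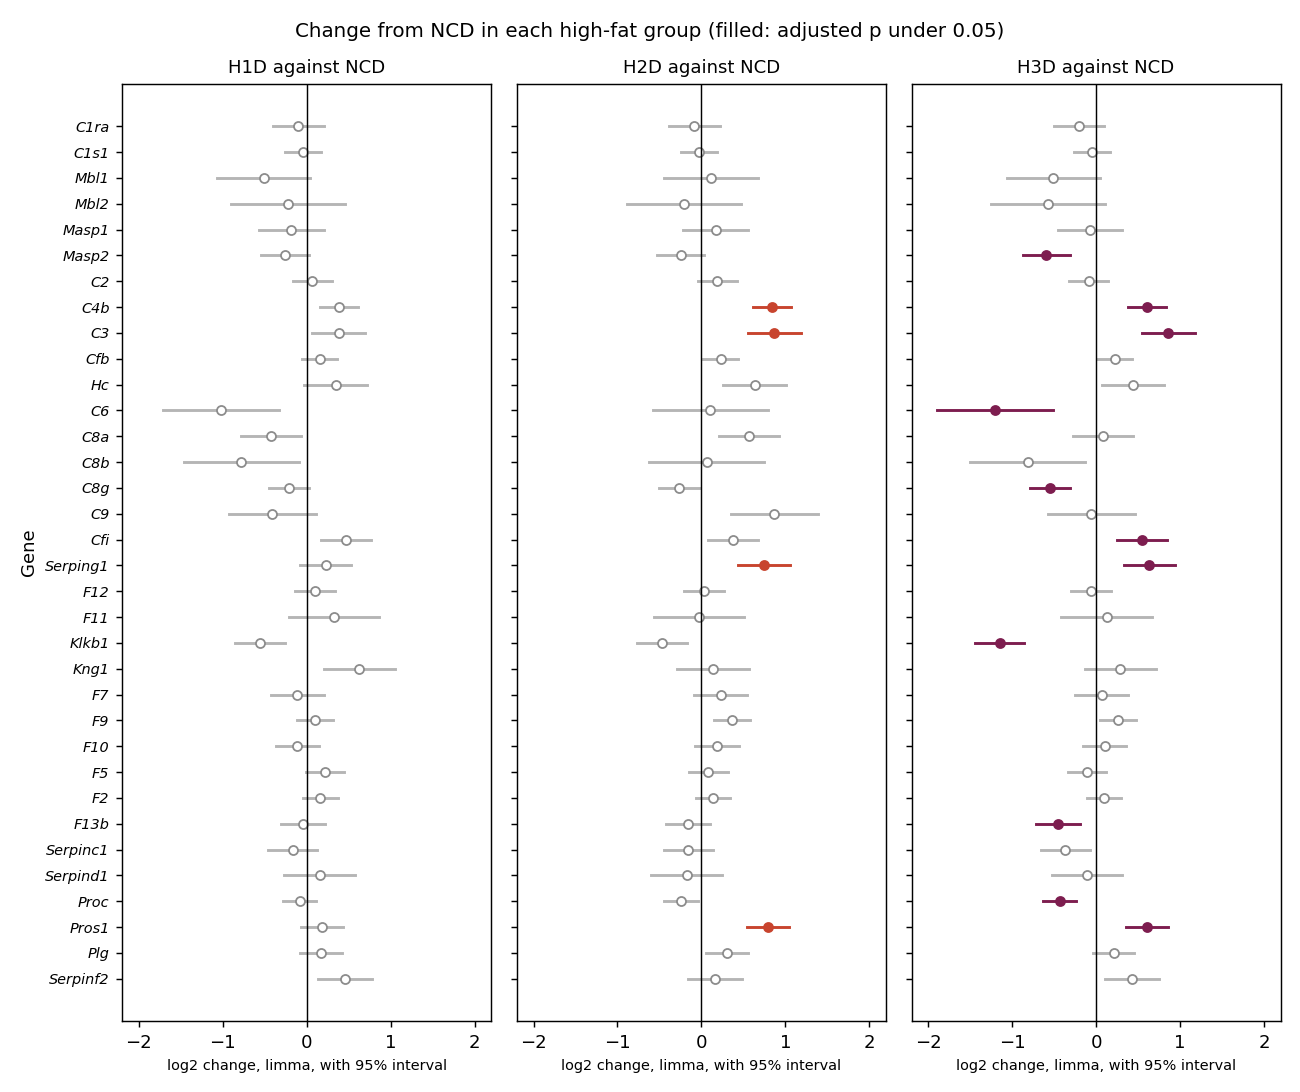
Log2 change from NCD of each of the 34 genes, in 1 panel each for H1D, H2D and H3D. Points are limma estimates, horizontal lines are 95% confidence intervals and filled points are calls. Klkb1 lies below 0 in all 3 groups and farthest in H3D (-1.15), while C3, C4b, Serping1 and Pros1 lie above 0 in H2D and H3D.

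The promoters shown here belong to genes called in the most comparisons (3 of 8 each), as sequence context for them. Of the 6 such genes chosen, C4b and Serping1 were not matched to a promoter window. The window of C8g, which held no match of the motifs searched in its 250 bases before the start, overlaps the annotated gene and is not printed. RefSeq promoter windows (build GRCm38.p6, 250 bases before to 50 after the gene start) were found for 25 of the 34 genes. Printed are the 250 bases before the start of Klkb1 (chr8:45294836-45295085, minus strand), C3 (chr17:57228137-57228386, minus strand) and Pros1 (chr16:62854057-62854306, plus strand), each read 5′ to 3′ in the direction of the gene. Capitals mark the motif matches in them: TTCTGCAA and TTGCGAAA are matches of the C/EBP motif, the first on the opposite strand, and TTCCAGGAA is a match of the STAT motif.
Klkb1: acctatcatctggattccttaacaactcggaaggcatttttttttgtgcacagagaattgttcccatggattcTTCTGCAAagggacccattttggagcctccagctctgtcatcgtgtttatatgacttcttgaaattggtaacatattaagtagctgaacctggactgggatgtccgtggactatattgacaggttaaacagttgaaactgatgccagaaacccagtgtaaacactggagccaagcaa
C3: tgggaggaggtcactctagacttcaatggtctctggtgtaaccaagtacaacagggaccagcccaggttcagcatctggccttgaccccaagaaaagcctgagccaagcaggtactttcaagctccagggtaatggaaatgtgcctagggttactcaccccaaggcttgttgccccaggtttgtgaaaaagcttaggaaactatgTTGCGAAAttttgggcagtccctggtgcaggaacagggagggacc
Pros1: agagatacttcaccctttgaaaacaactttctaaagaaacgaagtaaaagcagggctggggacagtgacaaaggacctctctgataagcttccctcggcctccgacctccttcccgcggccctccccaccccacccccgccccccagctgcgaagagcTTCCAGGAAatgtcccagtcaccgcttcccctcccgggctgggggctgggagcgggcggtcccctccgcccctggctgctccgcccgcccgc

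The matches began 177 bases before the start in Klkb1, 45 in C3 and 92 in Pros1. Motifs were searched on both strands of the whole window of 300 bases, and 4 of the 5 searched are reported here. The STAT motif TTCNNNGAA was found in 5 of the 25 genes (Pros1, Masp2, C8a, F9 and C1ra), or 20.0%, and in 8.30% of all 32851 windows. The C/EBP motif TTGCNNAA was found in 8 (C3, Klkb1, C9, F9, F11, C1ra, C1s1 and Serpinc1), or 32.0%, and in 10.8% of all windows. The NF-kB motif was found in 0 of the 25 and in 1.47% of all windows, and the HNF4 motif CAAAGTCCA in 0 and in 0.475%. A gene counted as found if any of its windows matched, and the 32851 windows belong to 27025 genes. A gene with several windows has more room for a match, so the share of genes and the share of windows are unlike measures. A match is a run of letters in the window and no measurement of binding.

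Among the genes of complement activation, C3 and C4b rose in H2D and in H3D against NCD, Masp2 fell in H3D, and the other 7 were not called. C3, which every route cleaves (chr17:57203967-57228136), had 2081 and 2464 FPKM in H1D, 3095 and 3258 FPKM in H2D and 3098 and 3205 FPKM in H3D, against 1755 and 1717 FPKM in NCD and 1558 and 1928 FPKM in Nor. All 6 high-fat pools lay above all 4 chow pools, and H2D and H3D lay above H1D. The log2 change from NCD was 0.87 ± 0.14 in H2D (SE, adjusted p = 0.0177, limma) and 0.86 ± 0.14 in H3D (adjusted p = 0.0061, limma), and was 0.38 ± 0.14 in H1D, which was not called (adjusted p = 0.207, limma).

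C4b, the component of the C3 convertase that the classical and lectin routes share (chr17:34728139-34743902), had 273 and 309 FPKM in H1D, 408 and 392 FPKM in H2D and 356 and 323 FPKM in H3D, against 227 and 219 FPKM in NCD and 221 and 216 FPKM in Nor. The high-fat pools again lay above all chow pools, with H2D highest and H1D lowest among them and no overlap between the 3 generations. C4b rose by a log2 change of 0.84 ± 0.097 in H2D (SE, adjusted p = 0.0064, limma) and 0.61 ± 0.097 in H3D (adjusted p = 0.0063, limma). Its value in H1D was 0.38 ± 0.097 (adjusted p = 0.107, limma). C3 in H2D lost its call without the filter on low values (adjusted p = 0.0648, limma), which tests 17404 genes.

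On the deposited scale, none of the recognition and protease genes was called as a rise. Cfb, a protease, nevertheless had all its high-fat pools above all chow pools. The other scalings of the libraries called it as a rise in H3D. Masp2, a protease of the lectin route (chr4:148594622-148615499), had 98.4 and 107 FPKM in H1D, 112 and 96.2 FPKM in H2D and 74.1 and 90.0 FPKM in H3D, against 124 and 123 FPKM in NCD and 165 and 152 FPKM in Nor. Both H3D pools lay below the other 8, and both Nor pools above them. It fell in H3D by 0.59 ± 0.12 on the log2 scale (SE, adjusted p = 0.0168, limma). With quantile scaling this call was lost at a log2 change of -0.26 (adjusted p = 0.101).

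The other 7 activation genes were called in no comparison. The lectins Mbl1 and Mbl2, which bind microbial sugars, had wide gaps between pools: Mbl1 had 95.3 and 136 FPKM in H1D, 178 and 175 FPKM in H2D and 89.8 and 146 FPKM in H3D, against 152 and 175 FPKM in NCD and 210 and 248 FPKM in Nor. In the H1D and H3D pools replicate 1 was the lower for Mbl1, Mbl2 and Masp1 alike. Cfb, the protease of the alternative route, had 552 to 626 FPKM over the 6 high-fat pools, 519 and 528 FPKM in NCD and 515 and 514 FPKM in Nor. C2, its counterpart in the classical route and its neighbour on chromosome 17 at a distance of 88 bases, ran from 36.2 to 48.7 FPKM, and C1ra and C1s1, the proteases of C1, from 69.9 to 113 FPKM and from 159.6 to 195 FPKM.

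Both complement inhibitors rose. Serping1 encodes the C1 inhibitor, which blocks C1 as well as kallikrein and factor XII (chr2:84765360-84775444). It had 325 and 427 FPKM in H1D, 536 and 534 FPKM in H2D and 476 and 517 FPKM in H3D, against 306 and 332 FPKM in NCD and 347 and 353 FPKM in Nor. The H2D and H3D pools lay above all others, while the 2 H1D pools stood apart from each other. Serping1 rose by a log2 change of 0.75 ± 0.13 in H2D (SE, adjusted p = 0.0248, limma) and 0.64 ± 0.13 in H3D (adjusted p = 0.0171, limma), and its H2D call was lost without the filter (adjusted p = 0.0505, limma).

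Cfi encodes factor I, which cuts the active forms of C3 and C4 (chr3:129836727-129875332). It had 574 and 474 FPKM in H1D, 515 and 469 FPKM in H2D and 599.5 and 507 FPKM in H3D, against 380.1 and 376 FPKM in NCD and 329 and 301 FPKM in Nor. All 6 high-fat pools lay above all chow pools, and the 3 generations overlapped. It rose in H3D by a log2 change of 0.54 ± 0.13 (SE, adjusted p = 0.0273, limma) and in the mean of the high-fat groups by 0.46 (adjusted p = 0.0287, limma). Together, 4 genes (C3, C4b, Serping1 and Pros1) had all H2D and H3D pools above the other 6, a pattern seen in the values and held by 3.79% of all genes tested.

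Terminal complement, whose products assemble the pore, held 2 falls in H3D (C6 and C8g) and 0 rises against NCD, and none of the 6 genes was called between generations. C6, the first of the pore proteins to bind after the cleaved product of Hc (chr15:4727067-4804045), had 39.8 and 48.2 FPKM in H1D, 98.2 and 94.3 FPKM in H2D and 27.4 and 54.0 FPKM in H3D, against 78.5 and 102 FPKM in NCD and 161 and 119 FPKM in Nor. The H1D and H3D pools lay below all NCD pools and the H2D pools lay within the range of NCD. C6 fell in H3D by 1.21 on the log2 scale, with a standard error of 0.30 (adjusted p = 0.0316, limma). The estimate for H1D was -1.02 ± 0.30 and was not called (adjusted p = 0.144, limma). The H3D call of C6 was lost in 4 of 10 other settings, where the adjusted p reached 0.0676, and in 5 of 10 fits that left out 1 library; without H3D replicate 1 the log2 change was -0.72, and without H3D replicate 2 it was -1.69.

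C8a and C8b, which code for the 2 pore-forming chains of C8 and lie 11131 bases apart on chromosome 4, and C9, which polymerises into the pore, also had their highest high-fat values in H2D. C8a had 163 and 158 FPKM in H1D, 329 and 312 FPKM in H2D and 195 and 266 FPKM in H3D, against 204 and 228 FPKM in NCD and 274 and 229.8 FPKM in Nor. C9 had 131 and 159.7 FPKM in H1D, 347 and 359 FPKM in H2D and 166 and 207 FPKM in H3D, against 174 and 214 FPKM in NCD and 355 and 223 FPKM in Nor. For both genes the H2D pools lay above all other high-fat pools and above NCD.

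C8b had 51.8 and 60.2 FPKM in H1D, 121 and 83.6 FPKM in H2D and 46.4 and 63.9 FPKM in H3D, against 89.7 and 103 FPKM in NCD and 215 and 117 FPKM in Nor. Its 2 Nor pools were far apart, and C9 shows the same gap. None of C8a, C8b and C9 was called in any of the 8 comparisons. C8g, the small remaining chain of C8 (chr2:25498650-25501777), behaved otherwise, with 179 and 176 FPKM in H1D, 182 and 160.1 FPKM in H2D and 137 and 144 FPKM in H3D, against 198 and 213 FPKM in NCD and 306 and 270.1 FPKM in Nor. It was lowest in H3D, next in H1D and H2D, which overlapped, then in NCD, and highest in Nor.

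C8g fell in NCD against Nor by 0.48 ± 0.10 (log2, SE, adjusted p = 0.0246, limma) and again in H3D against NCD by 0.55 ± 0.10 (adjusted p = 0.0117, limma). With quantile scaling the value in H3D was -0.18 and the call was lost (adjusted p = 0.228). In NCD against Nor the call was lost in all 3 other scalings of the libraries, at adjusted p up to 0.0993. Hc, the gene of the fifth component, moved with C3 rather than with the pore genes: it had 379 and 353 FPKM in H1D, 462 and 431 FPKM in H2D and 464 and 328 FPKM in H3D, against 298 and 278 FPKM in NCD and 259 and 222 FPKM in Nor. All high-fat pools lay above all chow pools, yet no comparison called it, and the closest was H2D against NCD with a log2 change of 0.63 ± 0.16 (adjusted p = 0.0756, limma).

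**Figure D3:**
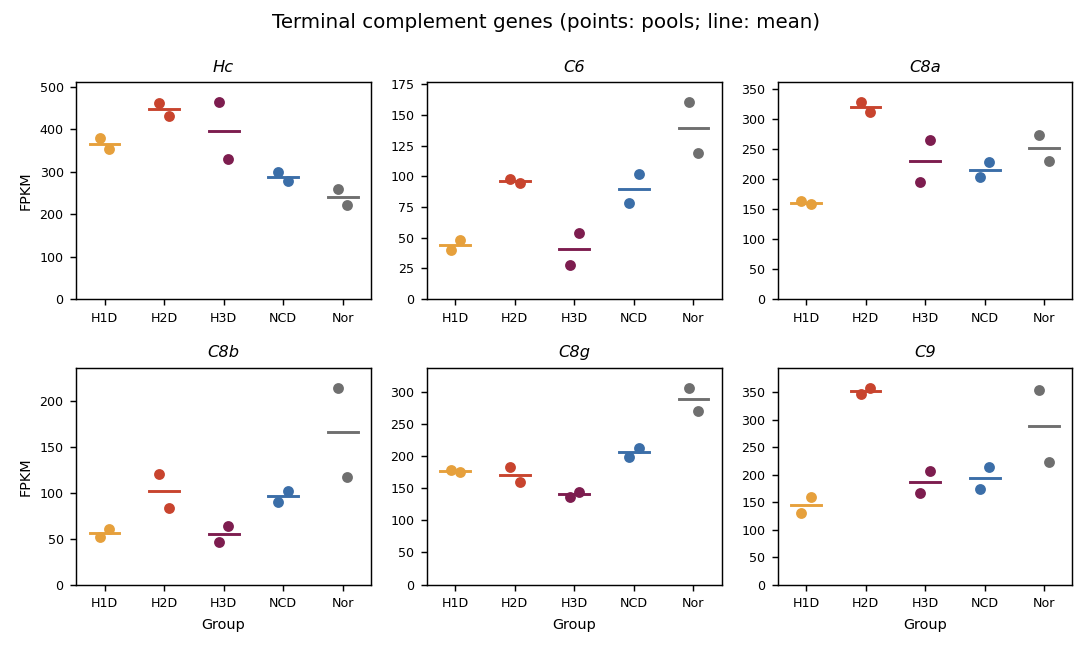
FPKM of the 6 terminal complement genes in each pool of H1D, H2D, H3D, NCD and Nor, with 1 panel per gene, 1 point per pool and a line at the group mean. C6, C8a, C8b and C9 have both H2D pools above all H1D and H3D pools, while C8g does not.

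The contact system, which starts the intrinsic route of coagulation and releases bradykinin, held the steadiest fall and the only rise in NCD against Nor. Klkb1 encodes plasma prekallikrein, the protease that frees bradykinin from kininogen (chr8:45266688-45294835). It had 53.3 and 64.7 FPKM in H1D, 68.5 and 56.7 FPKM in H2D and 38.5 and 39.1 FPKM in H3D, against 84.2 and 89.1 FPKM in NCD and 135 and 121 FPKM in Nor. The H3D pools were lowest, H1D and H2D overlapped above them, and NCD and Nor followed as separate steps.

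Klkb1 fell in H3D against NCD by 1.15 ± 0.13 on the log2 scale (SE, adjusted p = 0.0018, limma) and in the mean of the high-fat groups by 0.73 (adjusted p = 0.0067, limma). The H3D call held in all 10 other settings and in all 10 fits that left out 1 library, the only call among the 34 genes to do so, with log2 changes between -1.19 and -0.93. In NCD against Nor it fell by 0.56 ± 0.13 (adjusted p = 0.0292, limma), a call lost in the 3 other scalings (adjusted p up to 0.109).

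Kng1, the kininogen that prekallikrein cuts (chr16:23058220-23082078), had 3437 and 2472 FPKM in H1D, 2132 and 2026 FPKM in H2D and 2676 and 1994 FPKM in H3D, against 1921 and 1855 FPKM in NCD and 1177 and 1137 FPKM in Nor. The NCD pools lay far above Nor and every high-fat pool lay above NCD, with pools of H1D and H3D spread widely. It rose in NCD against Nor by a log2 change of 0.71 ± 0.18 (SE, adjusted p = 0.0421, limma), and no high-fat group was called against NCD. The call of Kng1 was lost with quantile scaling (adjusted p = 0.0584) and without the filter (adjusted p = 0.0943). Its neighbouring copy Kng2, named after its values were seen, had 378 and 279 FPKM in H1D, 301 and 287 FPKM in H2D and 381 and 292 FPKM in H3D, against 232 and 237 FPKM in NCD and 153 and 162 FPKM in Nor, and was not called in NCD against Nor (log2 change 0.58 ± 0.17, adjusted p = 0.0551, limma).

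F11 (factor XI) lies 4633 bases from Klkb1 and is its close relative in sequence and fold. It had 48.8 and 45.8 FPKM in H1D, 40.5 and 33.5 FPKM in H2D and 46.3 and 36.3 FPKM in H3D, against 40.2 and 35.1 FPKM in NCD and 35.1 and 20.8 FPKM in Nor. Unlike Klkb1, it was lowest in a Nor pool and highest in H1D, and it was called in no comparison. F12 (factor XII), which activates prekallikrein, ran from 158.8 to 204 FPKM over the 10 libraries and was not called either.

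**Figure D4:**
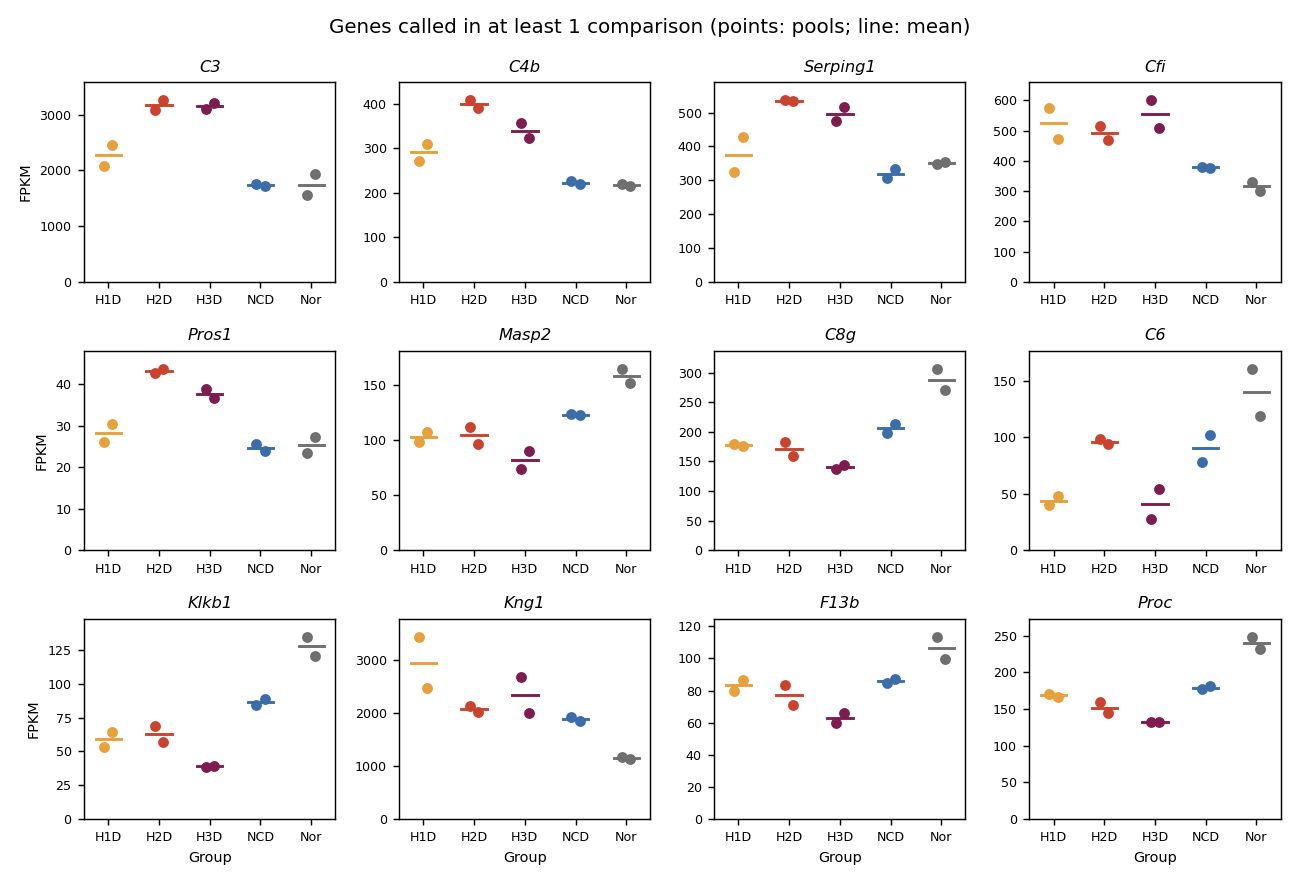
FPKM in each pool of the 12 genes called in at least 1 comparison, with 1 panel per gene, groups in the order H1D, H2D, H3D, NCD and Nor, 1 point per pool and a line at the group mean. Klkb1 and Proc are lowest in both H3D pools and highest in both Nor pools, and C3 and C4b are higher in all high-fat pools than in NCD.

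Of the 6 clotting factors, 1 was called on the deposited scale. F2 (prothrombin) ran from 709 to 839 FPKM over the 10 libraries, F5 (factor V) from 126 to 178 FPKM, F7 (factor VII, which tissue factor activates) from 32.9 to 50.7 FPKM, F9 (factor IX) from 83.7 to 118 FPKM and F10 (factor X) from 140.3 to 191 FPKM. None of these 5 was called in any comparison. F9 came nearest, with 118 and 103 FPKM in H2D against 83.7 and 87.3 FPKM in NCD (log2 change 0.36 ± 0.092, adjusted p = 0.0756, limma).

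F13b, the carrier chain of the factor XIII enzyme that crosslinks fibrin (chr1:139501547-139523758), was the exception. It had 80.0 and 86.4 FPKM in H1D, 83.7 and 70.9 FPKM in H2D and 59.4 and 65.8 FPKM in H3D, against 84.8 and 87.1 FPKM in NCD and 113 and 99.4 FPKM in Nor. Both H3D pools were the lowest of the 10 and both Nor pools the highest. F13b fell in H3D by 0.46 ± 0.11 on the log2 scale (SE, adjusted p = 0.0334, limma). This call was lost in the 3 other scalings of the libraries, where the log2 change was as small as -0.17 (adjusted p = 0.253).

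Of the 4 anticoagulants, the protease and the cofactor of the protein C pathway moved apart. Proc encodes protein C, which inactivates factors V and VIII. It had 171 and 167 FPKM in H1D, 160.0 and 144 FPKM in H2D and 133 and 132 FPKM in H3D, against 177 and 181 FPKM in NCD and 248 and 232 FPKM in Nor. H3D was lowest, followed by H2D, H1D, NCD and Nor, with no overlap between any groups. Proc fell in NCD against Nor by 0.42 ± 0.087 (log2, SE, adjusted p = 0.0223, limma) and in H3D against NCD by 0.43 ± 0.087 (adjusted p = 0.0147, limma). Both calls were lost in the 3 other scalings, with an adjusted p of up to 0.128 in NCD against Nor and up to 0.602 in H3D, where the log2 change was -0.07 at its smallest.

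Pros1 encodes protein S, the cofactor of activated protein C (chr16:62854307-62929346). It had 26.0 and 30.3 FPKM in H1D, 42.8 and 43.7 FPKM in H2D and 38.8 and 36.7 FPKM in H3D, against 25.5 and 23.8 FPKM in NCD and 23.5 and 27.2 FPKM in Nor. H2D was highest, H3D next, and neither overlapped with the other groups. Pros1 rose by a log2 change of 0.80 ± 0.11 in H2D (SE, adjusted p = 0.0113, limma) and 0.60 ± 0.11 in H3D (adjusted p = 0.0098, limma). Both calls held in all 10 other settings.

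The other anticoagulants are the serpins of thrombin. Serpinc1 (antithrombin) had 943 and 1162 FPKM in H1D, 1121 and 989 FPKM in H2D and 894 and 929.9 FPKM in H3D, against 1186 and 1163 FPKM in NCD and 1332 and 1438 FPKM in Nor. Serpind1 (heparin cofactor II) ran from 248.5 to 401 FPKM. Neither was called. In the genes of fibrinolysis, Plg had 868 to 1029.5 FPKM over the high-fat pools, 797 and 775 FPKM in NCD and 927 and 832 FPKM in Nor. Serpinf2 (antiplasmin, which blocks plasmin) had 673 and 582 FPKM in H1D, 547 and 481 FPKM in H2D and 659.9 and 572 FPKM in H3D, against 498 and 419.8 FPKM in NCD and 343 and 305 FPKM in Nor. Serpinf2 was lowest in the 2 Nor pools but was not called (NCD against Nor: log2 change 0.50 ± 0.14, adjusted p = 0.0502, limma), and neither gene was called in any comparison.

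The high-fat groups were compared with each other, since they share their own diet and differ in generation. Of the 34 genes 0 were called by limma in H2D against H1D, H3D against H2D or H3D against H1D, where 0.147%, 0.511% and 0.606% of all genes were called. The unadjusted p of limma was below 0.05 for 13, 11 and 10 of the 34, and for 1125, 1478 and 1332 of all 11557 genes tested. The largest estimates in H2D against H1D were those of C9, 1.28 ± 0.22 (log2, SE, 95% interval 0.76 to 1.80, adjusted p = 0.099, limma), and C6, 1.13 ± 0.30 (0.44 to 1.81, adjusted p = 0.253, limma), ahead of C8a with 0.99 ± 0.15 (0.64 to 1.35, adjusted p = 0.0886, limma). In H3D against H2D they were those of C6, -1.31 ± 0.30 (-2.00 to -0.63, adjusted p = 0.116, limma), and C9, -0.93 ± 0.22 (-1.44 to -0.41, adjusted p = 0.134, limma). Klkb1 had -0.68 ± 0.13 in H3D against H2D (-0.97 to -0.38, adjusted p = 0.0738, limma).

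The median log2 change of the 6 terminal complement genes was 0.92 in H2D against H1D and -0.68 in H3D against H2D, where that of all genes was -0.0007 and -0.02. The 2 comparisons share the H2D pools. As a description of the values, 10 of the 34 genes had both H2D pools above all H1D and H3D pools (C6, C8a, C8b, C9, C2, C4b, Mbl1, Masp1, Serping1 and Pros1), a pattern held by 11% of all genes tested. Serpinf2 had both H2D pools below them, a pattern of 9.11% of all genes. Both H3D pools lay below the other 8 for 7 genes (Klkb1, Masp2, C8g, F13b, Proc, Serpinc1 and F5), a pattern of 11.3% of all genes, and both Nor pools lay above the other 8 for 10 (C1ra, Mbl1, Masp1, Masp2, C6, C8g, Klkb1, F13b, Serpinc1 and Proc), a pattern of 24.1%. In single fits that left out 1 library, C9 passed the threshold in H2D against H1D without either Nor pool, C8a did so without either H3D pool, and C6 passed it in H3D against H2D without H3D replicate 2 (log2 change -1.79).

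Ratios of 2 genes within a pool do not depend on a scaling by 1 factor per library, though quantile scaling can change them. The pairs were chosen after the values were seen and carry no test. Kng1 over Klkb1 was 64.5 and 38.2 in the H1D pools, 31.1 and 35.7 in the H2D pools and 69.5 and 51.0 in the H3D pools, against 22.8 and 20.8 in NCD and 8.74 and 9.38 in Nor. All high-fat pools lay above both NCD pools and these above both Nor pools. Pros1 over Proc was 0.152 and 0.182 in the H1D pools, 0.267 and 0.304 in the H2D pools and 0.292 and 0.278 in the H3D pools, against 0.144 and 0.132 in NCD and 0.0949 and 0.117 in Nor. The H2D and H3D pools stood apart from all others.

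C3 over C8g was 11.6 and 14.0 in the H1D pools, 17.0 and 20.4 in the H2D pools and 22.7 and 22.2 in the H3D pools, against 8.85 and 8.05 in NCD and 5.08 and 7.14 in Nor, an order with no overlap between any groups. F11 over Klkb1, genes that stand next to each other on chromosome 8, was 0.915 and 0.707 in the H1D pools, 0.590 and 0.591 in the H2D pools and 1.20 and 0.929 in the H3D pools, against 0.477 and 0.394 in NCD and 0.261 and 0.171 in Nor. C8a over C8b was 3.15 and 2.63 in the H1D pools, 2.72 and 3.73 in the H2D pools and 4.21 and 4.16 in the H3D pools, against 2.27 and 2.22 in NCD and 1.27 and 1.959 in Nor. Such ratios show unequal change of 2 genes and not which of them changed.

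**Figure D5:**
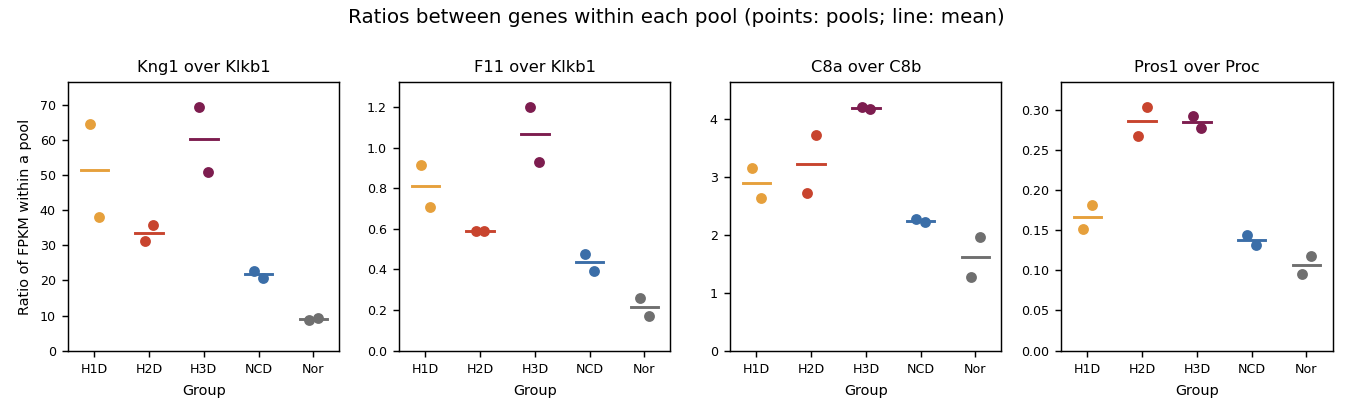
Ratio of the FPKM of 2 genes within each pool, on axes that start at 0, with 1 panel per pair, groups in the order H1D, H2D, H3D, NCD and Nor, 1 point per pool and a line at the group mean. Kng1 over Klkb1 is highest in an H3D pool (69.5) and lowest in a Nor pool (8.74), and Pros1 over Proc reaches 0.304 in H2D, against 0.0949 in Nor.

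The gene values are sums over transcripts, and 14 of the 34 genes had 1 transcript in the table and 20 had several. In most of these 1 transcript carried the level and its share was steady. The main transcript of Kng1 held 79.4% of the gene in H1D, 79.4% in H2D and 78.6% in H3D, against 77.2% in NCD and 70.5% in Nor, and was lowest in Nor, where the gene was lowest too. The main transcript of C6 held 80.8% in H1D, 81.7% in H2D and 84.2% in H3D, against 78.7% in NCD and 75.9% in Nor. Serpind1 was divided between 2 transcripts of like level, of which one held 46.0% in H1D, 47.0% in H2D and 43.5% in H3D, against 49.1% in NCD and 50.7% in Nor. These shares are the estimates of the authors' software and carry no test.

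The rest of the pathway was read from a list of 70 further complement and coagulation genes, of which 59 were tested. Against NCD, 0 were called in H1D, 9 rose and 0 fell in H2D, and 12 rose and 4 fell in H3D. Of all genes, 0.701% were called in H1D, 2.15% rose in H2D, and 5.04% rose and 9.87% fell in H3D. NCD against Nor gave 4 rises and 0 falls, where 7.93% of all genes rose and 6% fell. The rises of the list were thus near the share of all genes. They were F2rl1, a protease-activated receptor (log2 change 2.15), Pzp, an inhibitor of proteases (0.62), and Plau and Plaur, urokinase and its receptor. Plau and Plaur stayed below 2 FPKM in both groups and are named after their values were seen. F2rl1 was low too, with 0.086 and 0.073 FPKM in Nor and 1.77 and 2.40 FPKM in NCD. The size of its log2 change thus depends on the 0.5 FPKM added before the log. The median log2 change of the list was 0.24 in H1D, 0.34 in H2D and 0.35 in H3D, where the medians of all genes lay at 0.008, -0.003 and 0.003.

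The 3 chains of fibrinogen, the substrate of thrombin, rose together. Fga had 3396 and 3281 FPKM in H1D, 4847 and 4668 FPKM in H2D and 4468 and 5446 FPKM in H3D, against 2385 and 2457 FPKM in NCD and 2069.7 and 2555 FPKM in Nor. Its log2 change from NCD was 0.97 ± 0.14 in H2D (SE, adjusted p = 0.0147, limma) and 1.03 ± 0.14 in H3D (adjusted p = 0.0041, limma). Fgb rose by a log2 change of 0.83 in H2D and 0.90 in H3D, and Fgg by 0.88 and 0.96.

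Serpina10, the inhibitor of factor Xa that acts with protein Z, rose by a log2 change of 1.04 in H2D and 1.08 in H3D.

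Other liver products of the acute phase stood beside these. Of 24 acute phase genes tested, 4 rose and 0 fell in H1D, 16 rose and 0 fell in H2D, and 15 rose and 1 fell in H3D, with median log2 changes of 0.50, 1.44 and 1.30. Saa1, the serum amyloid A of plasma, had 113 and 227 FPKM in H1D, 3479 and 7849 FPKM in H2D and 788 and 2378 FPKM in H3D, against 51.0 and 84.3 FPKM in NCD and 55.0 and 72.5 FPKM in Nor. The H2D pools were the highest, as they were for C4b and Pros1. Lcn2, a marker of injured and inflamed liver, had 709 and 745 FPKM in H1D, 1216 and 1803 FPKM in H2D and 2648 and 2471 FPKM in H3D, against 199 and 280.4 FPKM in NCD and 4.05 and 4.23 FPKM in Nor. Among 7 negative acute phase genes tested 0 fell in H1D, 2 in H2D and 4 in H3D.

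Of 19 transcription factors of liver tested, Stat3, which carries the signal of interleukin 6, rose in H2D and H3D, with 48.2 and 53.7 FPKM in H2D and 48.1 and 44.6 FPKM in H3D against 28.0 and 28.4 FPKM in NCD. Hnf4a, a general regulator of hepatocyte genes, was not called, with 157 and 147 FPKM in H1D, 156 and 146 FPKM in H2D and 146 and 126 FPKM in H3D, against 139 and 152 FPKM in NCD and 205 and 178 FPKM in Nor. Cebpa, which binds the C/EBP motif, had 92.1 and 104 FPKM in H1D, 98.0 and 95.1 FPKM in H2D and 91.5 and 90.3 FPKM in H3D, against 122 and 125 FPKM in NCD and 171 and 131 FPKM in Nor, and was not called against NCD (H3D: log2 change -0.44, adjusted p = 0.0571, limma). Cebpb, another factor of that motif, fell in NCD against Nor by 1.03 on the log2 scale (adjusted p = 0.0111, limma).

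Markers of other cells and of hepatocytes were called in the same comparisons. In NCD against Nor, 4 of 7 stellate cell and fibroblast markers rose (Col1a1, Col1a2, Col3a1 and Acta2, median log2 change of the list 0.82). Single markers rose for macrophages (Mpeg1, 1 of 10 tested), endothelium (Lyve1, 1 of 7) and lymphocytes (Nkg7, 1 of 4). The medians of these lists were 0.45, 0.15 and 1.07, and 7.93% of all genes rose. All 8 neutrophil markers tested rose in H2D and in H3D against NCD, and the summed level of the list of 9 was 19.1 to 106 FPKM in H1D, 458 to 553 FPKM in H2D and 299 to 910 FPKM in H3D, against 10.5 to 29.2 FPKM in NCD and 3.73 to 12.4 FPKM in Nor. The 10 macrophage markers summed to 418 to 524 FPKM in H1D, 577 to 587 FPKM in H2D and 412 to 665 FPKM in H3D, against 276 to 359 FPKM in NCD and 181 to 244 FPKM in Nor, and 1 of the 10 rose in each high-fat group. The 5 erythroid markers summed to 469 to 873 FPKM in H1D, 1239.8 to 1819 FPKM in H2D and 1098 to 3226 FPKM in H3D, against 498 to 602 FPKM in NCD and 407 to 446 FPKM in Nor. The 7 hepatocyte markers summed to 69436 to 88394 FPKM in H1D, 48331 to 57773 FPKM in H2D and 62724 to 76947 FPKM in H3D, against 63381 to 67605 FPKM in NCD and 61785 to 68075 FPKM in Nor, and were thus lowest in the H2D pools. Most of that sum was albumin, with 33486 to 63066 FPKM over the 10 libraries. Of the 7, 0 fell in H1D, 1 in H2D (Ttr) and 3 in H3D (Ttr, Cps1 and Cyp2e1) against NCD, with median log2 changes of -0.27, -0.21 and -0.47, and 3 fell in NCD against Nor (Cps1, Cyp2e1 and Tat, median -0.36). In every list of markers 0 genes were at 0 in all libraries. Their part in the changes of the 34 genes was not tested.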

How the data were processed

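Livers were measured by RNA sequencing after removal of ribosomal RNA, with paired reads of 125 nt, per the labels' protocols. The authors deposited FPKM values per transcript (50660 transcripts). Per the submitters' processing notes, which give no order or role, the tools were GATK, SAMtools 0.1.18, Picard 1.96, Cuffdiff 2.1.1, Cufflinks 2.1.1, TopHat2 2.0.9 and Bowtie2 2.0.6, with build GRCm38. Depth per library is not given in the sources used here, and FPKM allow no count model, so precision is known only from the pools.

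Transcripts were summed to 21949 genes, and the 11557 with at least 1 FPKM in at least 2 of 10 libraries entered a fit on log2(FPKM + 0.5), made by limma 3.58.1 (R 4.3.3) with a variance trend and a coefficient for each of the 5 groups. Tests were two-sided with Benjamini-Hochberg adjustment over all genes, and SE is the standard error of limma. The fit was tested on simulated data for H2D against NCD, with 50 genes changed at each size and no other difference between groups. The changed genes were drawn from those with a mean log2 value above 2. It called 44% of the genes changed by 0.5 on the log2 scale, 80% at 1, 96% at 2 and 98% at 3. There were 14 false calls. These numbers hold for that setting, and comparisons with more or fewer changed genes were not simulated. A gene that was not called may thus still have changed. The 34 genes, the other lists and the settings were chosen with earlier results of these data known. Values per pool are given for every gene called and some others, and from the other lists for up to 4 called genes of smallest p and 12 fixed genes. Coordinates and promoters come from RefSeq (GRCm38.p6). Coordinates were matched by gene identifier, or by symbol where that gave no single entry, and promoters by symbol. C4a, Cebpd and Tf were not analysed here, and some results of the other lists are not reported here. The alternatives were a pseudocount of 0.1 or 1, no filter on low values, a mean of at least 5 FPKM, 3 scalings of the libraries, a replicate block, only the groups compared, the highest transcript of a gene and leaving out each library. Figures were made by matplotlib 3.10.9 under Python 3.11.15.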

Additional observations from a re-analysis of the deposited data

How the results depend on the processing

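No call reversed its direction under any setting tried. Klkb1 in H3D against NCD was the only call to hold in all 10 other settings and in all 10 fits without 1 library. Rises in H3D and in the mean of the high-fat groups held in all 10 settings, while falls other than that of Klkb1 did not. In H3D against NCD, 4 falls were called with equal FPKM sums, 4 with equal sums without mitochondrial genes and 1 with quantile scaling. Other than that of Klkb1 against NCD, a called fall thus depends on the scaling or on another setting. Over all genes the split in H3D was 583 rises and 1141 falls, against 1984 and 673 with equal FPKM sums, and in NCD against Nor 916 and 693, against 1670 and 96.

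The number of calls among the 34 genes in NCD against Nor (4) was 1 with quantile scaling, 2 with equal sums without mitochondrial genes and 2 with only the groups compared. In H2D against NCD (4) it was 2 with no filter, 7 with equal FPKM sums and 7 with only the groups compared. In the mean of the high-fat groups (7) it was 12 with equal FPKM sums and 11 with equal sums without mitochondrial genes. Leaving out 1 library gave 0 to 5 calls in NCD against Nor, 0 in H1D, 0 to 6 in H2D, 1 to 12 in H3D and 0 to 9 in the mean of the high-fat groups against NCD, 0 to 1 in H2D against H1D and in H3D against H2D, and 0 in H3D against H1D. The lone library left in a group is then assumed to vary like the others.

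The replicate numbers are not taken to pair the pools, since 4 of 10 pairs of groups had a correlation of deviations over 0.1 and 6 did not (range -0.05 to 0.23). The fit with a replicate block gave 5 calls in NCD against Nor, 0 in H1D, 5 in H2D, 12 in H3D and 9 in the mean of the high-fat groups. The unknown depth of the libraries limits what can be said of single values. Each group is 2 pools of RNA, and the NCD pools enter every comparison with a high-fat group.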
